A study of Fukomys damarensis and Heterocephalus glaber and Mus musculus with 160 samples.

Results

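Enhancers that carried active chromatin in both liver and heart were examined in the naked mole-rat (Heterocephalus glaber), the Damaraland mole-rat (Fukomys damarensis), the guinea pig (Cavia porcellus) and the mouse. The regions were chosen by their measured peaks, each species apart. Peaks of 1 tissue and mark that overlapped a peak of another animal by at least 50% of the shorter were merged into consensus regions. An active enhancer was an H3K27ac consensus region that overlapped H3K4me1 and did not overlap H3K4me3 by that rule. A shared active enhancer was a liver active enhancer that overlapped a heart active enhancer by it. The rule found 26946 shared regions among 153845 liver active enhancers, of 541446 H3K27ac consensus regions in both tissues and all species. Their number, their marks and every count of overlap between the tissues are therefore descriptions and were not tested.

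Enhancers are stretches of DNA outside promoters that bind transcription factors and raise the activity of genes on the same chromosome. H3K4me1 lies on enhancers whether they are in use or only primed, and H3K27ac is added when an enhancer is in use. H3K4me3 lies mainly on the promoters of active or poised genes. Many enhancers are active in few tissues or cell types, while others are active in several.

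Chromatin immunoprecipitation followed by sequencing was done on whole liver and heart of wild-type adults, and the deposited data are 1 list of peaks per library. Naked mole-rats were males aged 13 to 17 months, and Damaraland mole-rats were males of an estimated 36 to 48 months apart from DMR6, a female with liver histone lists and the heart list of the factor TBX5. Guinea pigs were males of 2.3 months and mice C57BL/6J males of 2 months, and 1 mouse heart replicate was a pool of 3 animals. Each whole organ mixes several cell types, so a region active in a cell type common to both organs and a region active in their main cell types cannot be told apart. Species differed in age and genome assembly as well, which cannot be told apart from species. Histone lists numbered 99 in 24 groups of 2 to 6 animals, and factor lists 17, from liver in 16 cases and from heart in 1. Without an annotation of these builds, no gene is given for any region, and the marker genes of the tissues were not analysed here.

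Histone lists held between 14782 and 253457 peaks, and read depth is unknown because peak lists carry no read numbers. Every list was compared with regions specific to 1 tissue in the other lists, and 2 of 99 covered more active enhancers of the other tissue than of their own. The mouse library labelled heart H3K4me3 6837 had peaks at 23.4% of liver-only active enhancers and 0.0839% of heart-only ones, and at 73% of liver-only against 48.6% of heart-only promoter regions. The naked mole-rat liver H3K4me3 list of NMR30 had peaks at 13.4% of heart-only active enhancers, above the 9.73% at liver-only ones. H3K4me3 serves here to leave out promoters and to measure distance. Leaving out either list moved the number of members little, since mouse members numbered 6047 instead of 5809 without 6837, and the naked mole-rat 6099 instead of 6072 without NMR30. Distances to H3K4me3 moved more and are given with and without them. The H3K4me1 heart lists of mouse 33017 and of DMR1 carry a 40M tag in their names that the labels do not explain. Damaraland mole-rat liver had H3K4me3 lists from 2 animals only.

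Shared active enhancers were a minority of active enhancers in every species and tissue. The naked mole-rat had 6072, which was 12.9% of its 46895 liver active enhancers. The Damaraland mole-rat had 8788, or 18.7% of 46899, and the guinea pig 6277, or 17.7% of 35504. The mouse had 5809, or 23.7% of 24547. Counted from the heart side, the shared regions were 4845 in naked mole-rats, 7950 in Damaraland mole-rats, 6792 in guinea pigs and 5699 in mice. These made up 32.0%, 26.2%, 28.3% and 20.6% of heart active enhancers. The order of the species by the liver share was thus not the order by the heart share, and the naked mole-rat had both the lowest liver share and the highest heart share, beside 46895 liver and 15146 heart active enhancers. A consensus needed 2 lists, whatever their number. H3K27ac and H3K4me1 each had 5 lists in naked mole-rat liver and 3 in heart. Damaraland mole-rats had 5 in both tissues, guinea pigs 3 in both, and mice 4 in liver and 6 and 5 in heart. The part of list numbers in these shares was not tested. One list weighed on the naked mole-rat number: without the heart H3K4me1 list of NMR30 it was 3628, which was 7.74% of liver and 39.5% of heart active enhancers.

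**Figure D1:**
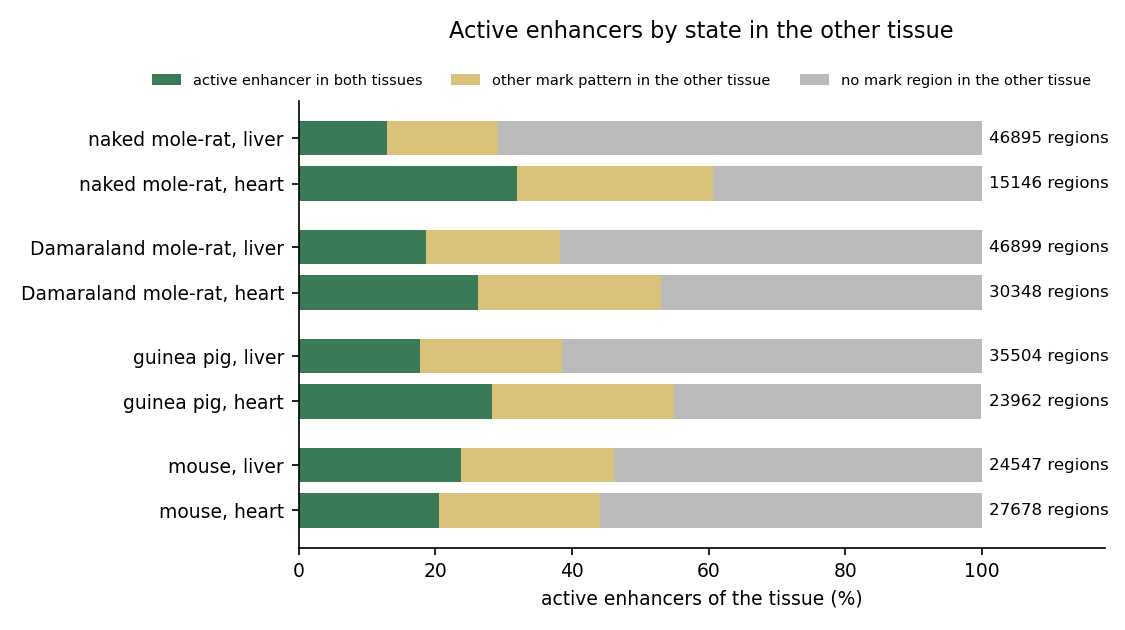
Bars give the percentage of active enhancers of each species and tissue that were active enhancers in both tissues, had another mark pattern in the other tissue, or had no region of the 3 marks there. The shared part runs from 12.9% in naked mole-rat liver to 32.0% in naked mole-rat heart.

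The rest of the active enhancers fell into regions with some other mark in the second tissue and regions with none. No mark region of heart lay on 70.8% of liver active enhancers in naked mole-rats, 61.7% in Damaraland mole-rats, 61.4% in guinea pigs and 53.9% in mice, called liver-only here. Heart-only active enhancers, defined the same way, made up 39.3%, 47.0%, 44.9% and 55.9% of heart active enhancers. Regions between the classes mostly carried part of the active pattern: of 9186 such liver regions in the Damaraland mole-rat, 3715 had H3K4me1 alone in heart, 2395 had H3K27ac alone and 2005 had H3K4me3. In the guinea pig 1980 of 7436 liver active enhancers of this kind overlapped H3K4me3 in heart, while 114 of 6402 heart ones overlapped H3K4me3 in liver. Its H3K4me3 consensus regions numbered 20031 in heart and 14454 in liver. The same counts were 2005 of 9186 against 437 of 8145 in Damaraland mole-rats and 906 of 5508 against 371 of 6497 in mice. Naked mole-rats had 646 of 7627 against 473 of 4346.

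Liver and heart regions of a pair often differed in extent. The shorter region lay wholly inside the longer for 72.7% of members in naked mole-rats, 71.9% in Damaraland mole-rats, 71.4% in guinea pigs and 74.1% in mice. An overlap of 50% of both regions was reached by 31.4%, 37.8%, 47.3% and 39.5%. Among pairs of 1 liver and 1 heart region, the liver region was the wider in 35.1% of 3321 naked mole-rat pairs, 42.3% of 5659 Damaraland mole-rat pairs and 38.4% of 4130 mouse pairs. In the guinea pig it was the wider in 57.6% of 4801 pairs. A single region could face several in the other tissue: 1 naked mole-rat heart region overlapped 12 liver regions, and 1 mouse liver region overlapped 11 heart regions. Asking for an overlap of 50% of both regions at every step left 316 members in naked mole-rats, 1050 in Damaraland mole-rats, 763 in guinea pigs and 985 in mice.

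Regions on either side of the 50% limit show how fine the boundary was. The last member of the naked mole-rat, JH169574.1:470328-470710 (HetGla_1.0), had 50.13% of its 383 bases in a heart region of 2458 bases, and the nearest region left out, JH173268.1:230782-231918, had 49.87%. In the Damaraland mole-rat (DMR_v1.0) KN122883.1:347698-348271 was in at 50.17% and KN123095.1:4777022-4778464 out at 49.95%. In the guinea pig (Cavpor3.0) DS562874.1:30964226-30967232 was in at 50.00% and DS562876.1:17816866-17817535 out at 49.92%. In the mouse (GRCm38) X:17544200-17544895 was in at 50.00% and 16:43392765-43394591 out at 49.92%. Few regions lay so close: 64 naked mole-rat members had an overlap from 50% to under 55%, and 49 regions left out had 45% to under 50%.

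Consensus regions of shared enhancers were wider than those of enhancers of 1 tissue. The median width in liver was 802 bases for shared against 604 for liver-only regions in naked mole-rats, 1020 against 713 in Damaraland mole-rats, 1824 against 1086 in guinea pigs and 1256 against 928 in mice. In heart the medians were 1587 against 866, 1456 against 814, 1382 against 824 and 1644 against 916 in the same order. The direction was the same in all 8 comparisons. Width enters the overlap rule, so these values are descriptions.

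The H3K27ac peak of shared enhancers was also found in every list more often. An H3K27ac peak was present in all 6 heart lists for 48.4% of mouse shared regions against 22.2% of heart-only ones. In the 5 Damaraland mole-rat heart lists the figures were 49.1% against 29.4%, in the 3 naked mole-rat heart lists 82.1% against 63.8%, and in the 3 guinea pig heart lists 78.6% against 61.8%. In liver the gap was smaller, with 49.5% against 37.7%, 55.5% against 42.4%, 82.6% against 70.2% and 69.9% against 61.3% for naked and Damaraland mole-rats, guinea pigs and mice. For H3K4me1, single lists had a peak at a higher share of shared than of tissue-only enhancers in 16 of 16 heart lists but in only 9 of 17 liver lists, beside 17 of 17 and 16 of 17 for H3K27ac. A peak in every H3K27ac and H3K4me1 list of both tissues was found at 3422 guinea pig members (54.5%, 12 lists), 1333 naked mole-rat members (22.0%, 16 lists), 1101 Damaraland mole-rat members (12.5%, 20 lists) and 671 mouse members (11.6%, 19 lists). The number of lists differs between species, so these shares have no common scale.

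The H3K27ac fold enrichment, the authors' ratio of signal over background for each peak, was of like size in both tissues. At naked mole-rat members the median H3K27ac fold was 7.15, 6.61, 6.96, 6.54 and 7.11 in the liver lists of NMR30, NMR31, NMR32, NMR34 and NMR35. The heart lists of NMR31, NMR32 and NMR35 had 7.86, 7.79 and 7.60. Group means of these medians were 7.19 ± 0.277 in liver and 7.15 ± 0.691 in heart of the Damaraland mole-rat (SD, n = 5 and 5), 7.19 ± 0.501 and 7.45 ± 0.383 in guinea pigs (n = 3 and 3) and 7.21 ± 0.283 and 6.81 ± 0.790 in mice (n = 4 and 6). Only in the naked mole-rat did the H3K27ac values of the tissues not overlap, with every heart list above every liver list. The H3K4me1 fold at members was higher in liver in both mole-rats, with every liver list above every heart list: 7.87 ± 0.390 against 5.59 ± 0.12 in naked mole-rats (SD, n = 5 and 3) and 7.09 ± 0.342 against 5.51 ± 0.401 in Damaraland mole-rats (n = 5 and 5). It overlapped between the tissues in guinea pigs, with 6.89 ± 1.01 against 6.23 ± 0.175 (n = 3 and 3), and in mice, with 7.49 ± 2.08 against 6.32 ± 0.90 (n = 4 and 5). Fold depends on the depth of each library and its control, so it was not tested between libraries.

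Within a library, where depth is the same, shared enhancers had higher H3K27ac fold than heart-only ones in 17 of 17 heart lists, and than liver-only ones in 16 of 17 liver lists. Fold at a region is that of its strongest peak, and shared regions were wider. Neither fold nor its ranks were compared among regions of like width, so the part of width in these values was not tested. The ratio of the medians was 1.28 ± 0.00735 (SD, n = 3) in naked mole-rat heart, 1.23 ± 0.0794 (n = 5) in Damaraland mole-rat heart, 1.24 ± 0.0206 (n = 3) in guinea pig heart and 1.18 ± 0.0368 (n = 6) in mouse heart. In liver it was 1.07 ± 0.0289 (n = 5), 1.05 ± 0.0271 (n = 5), 1.22 ± 0.110 (n = 3) and 1.00 ± 0.0151 (n = 4). With members as reported, mouse liver was thus alone in showing next to no excess, and its list of 85924 was the exception, with 6.91 at shared and 7.03 at liver-only enhancers. This contrast depended on the definition. Under 7 other member definitions the mean liver ratio ran from 0.927 to 1.36 in mice and from 1.03 to 1.33 in naked mole-rats. It ran from 1.03 to 1.20 in Damaraland mole-rats and from 1.18 to 1.22 in guinea pigs. Heart ratios ran from 1.12 to 1.58 over the 4 species. For H3K4me1 the fold was higher at shared enhancers in 16 of 16 heart and 16 of 17 liver lists, with GuineaPig8 liver (6.22 against 6.28) as the exception. The heart side stood out by rank as well: of the 10% of heart active enhancers with the highest mean H3K27ac fold, 53.0% were shared in naked mole-rats, 51.0% in Damaraland mole-rats, 52.7% in guinea pigs and 40.1% in mice. Of the lowest 10%, 20.7%, 16.1%, 18.4% and 13.4% were shared. In liver the highest 10% held 17.4%, 24.8%, 25.4% and 25.9%, and the lowest 10% held 10.8%, 16.5%, 11.7% and 23.5%.

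**Figure D2:**
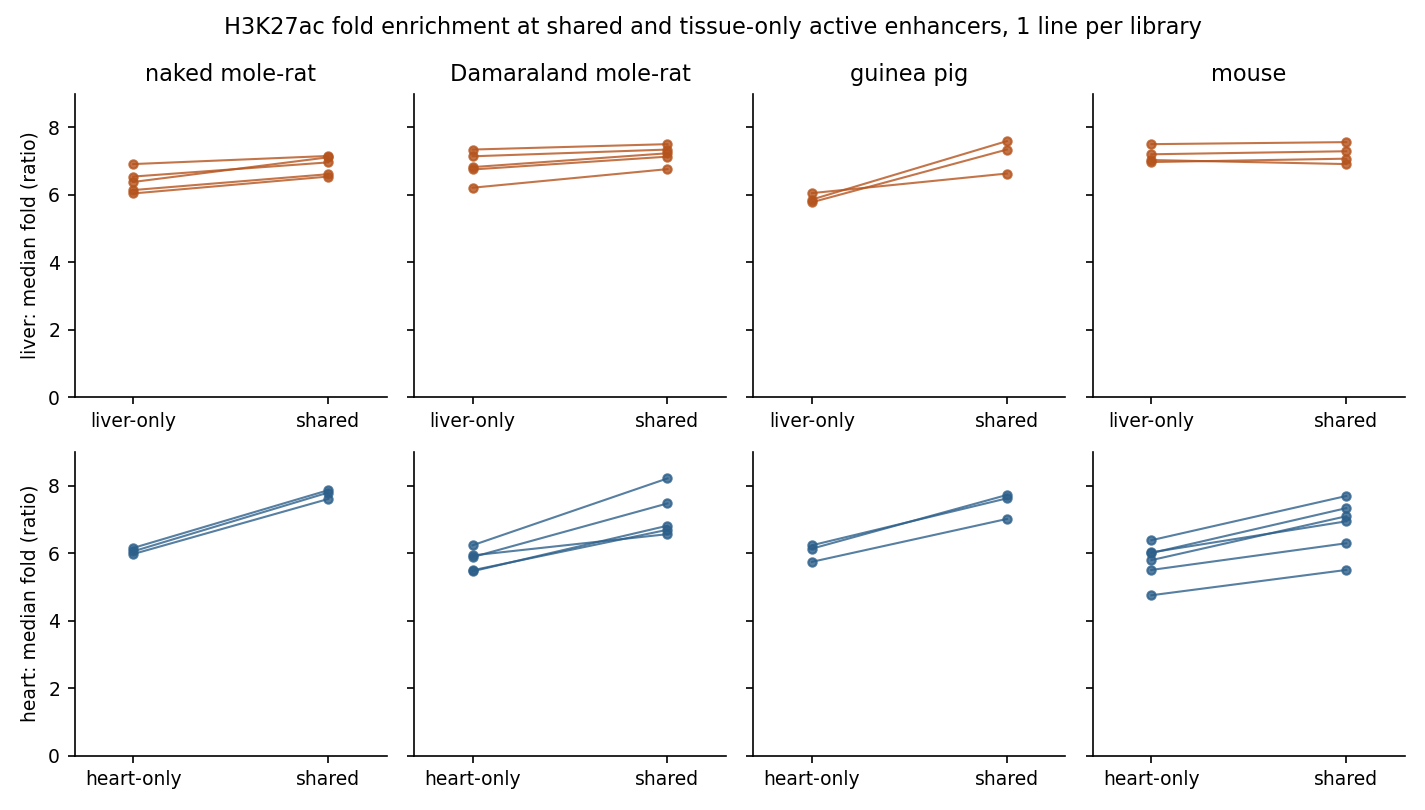
Each line joins the median H3K27ac fold (the authors' linear ratio) of 1 library at tissue-only active enhancers and at shared ones, for liver above and heart below. All 17 heart lines rise towards the shared enhancers, and the 4 mouse liver lines are nearly level.

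A strong shared enhancer in liver was only loosely a strong one in heart. Across members, the Spearman correlation of mean H3K27ac fold between the tissues was 0.18 in naked mole-rats, 0.19 in Damaraland mole-rats, 0.28 in guinea pigs and 0.14 in mice (6072, 8788, 6277 and 5809 regions that share libraries, so no p is given). The fold differed by no more than 2 times between the tissues at 76.8%, 77.0%, 76.6% and 76.9% of members. Over 2 times higher in liver were 7.41%, 13.3%, 9.24% and 16.8%, and over 2 times higher in heart 15.7%, 9.67%, 14.2% and 6.30%. For H3K4me1, at the 5761 naked mole-rat members with a value in both tissues, liver was over 2 times higher at 21.0% and heart at 0.330%.

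H3K27ac peaks at naked mole-rat members were narrower in liver than in heart in every library. The median width was 484, 596, 485, 391 and 529 bases in liver of NMR30, NMR31, NMR32, NMR34 and NMR35, and 1099, 1018 and 805 bases in heart of NMR31, NMR32 and NMR35. Widths were taken at the liver regions in liver lists and at the heart regions in heart lists. The groups did not overlap, and the difference of liver minus heart was −0.97 on the log2 scale, a ratio of 0.510. These peaks define the members and their extents enter the overlap rule, so the widths in the tissues are a description and no p is given for them. Over all peaks of the same lists the difference was −0.24, and relative to each library's own median it was −0.73. The number of peaks differed by 0.03 on the log2 scale between these groups. The libraries carry 1 of 2 series prefixes in their names, do or vl, and within series the difference was −0.90. The size depended on the rule: with an overlap of 50% of both regions it was −0.11.

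In the other species the H3K27ac difference was smaller or of opposite sign. Damaraland mole-rat liver lists had 596, 836, 558, 608 and 570 bases (DMR1, DMR2, DMR3, DMR4 and DMR6) and heart lists 678, 789, 792, 827 and 987 bases (DMR1, DMR11, DMR2, DMR3 and DMR4). Only the liver list of DMR2 reached into the heart range, and the difference was −0.37, within series −0.42. It was −0.06 with an overlap of 50% of both regions and −0.02 with equal peak numbers. Guinea pig liver lists had 1368, 1119 and 1244 bases and heart lists 760.0, 1094 and 883 bases for animals 7, 8 and 9. Each liver list was above each heart list, by 0.46 on the log2 scale, beside 0.36 over all peaks. Mouse liver lists ran from 796 to 919 bases with a median of 853, and heart lists from 612 to 1192 with a median of 733, a difference of 0.05. The naked mole-rat difference minus that of the other species was −0.60 for the Damaraland mole-rat, −1.43 for the guinea pig and −1.02 for the mouse.

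**Figure D3:**
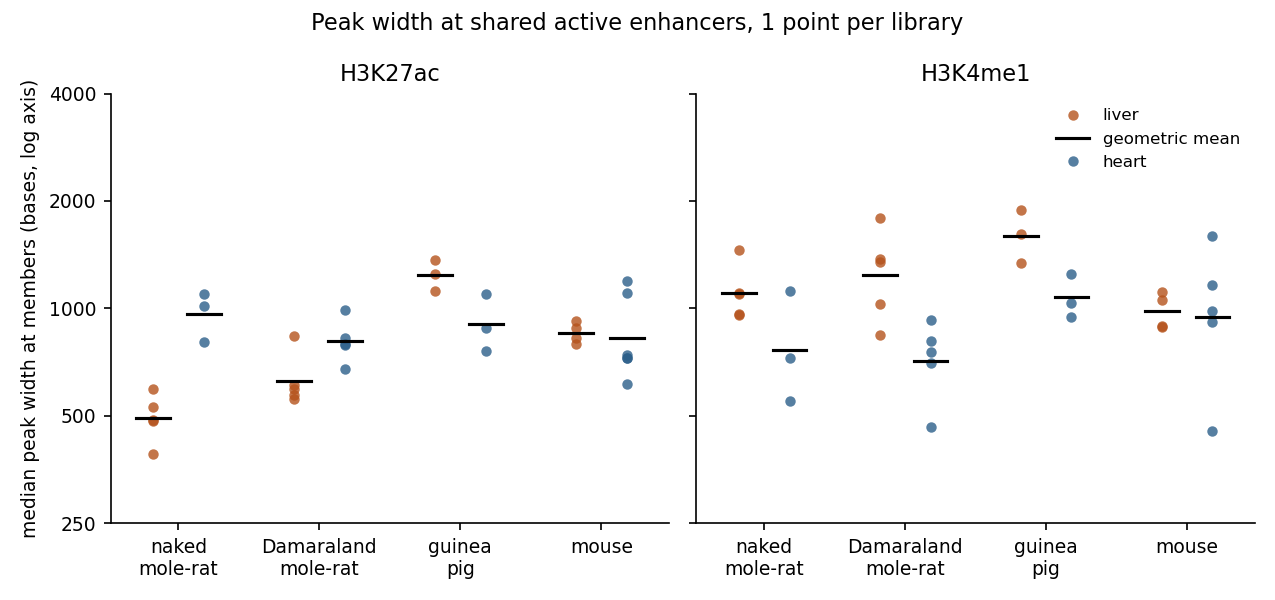
Points give the median width of H3K27ac (left) and H3K4me1 (right) peaks at shared active enhancers in 1 library, on a log axis, with the geometric mean of each tissue as a line. Naked mole-rat liver libraries lie at 391 to 596 bases for H3K27ac, below all heart libraries of that species, whereas H3K4me1 points of liver lie mostly above those of heart in the first 3 species.

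H3K4me1 ran the other way in the mole-rats, with wider peaks in liver. In the Damaraland mole-rat the lists of DMR1, DMR2, DMR3, DMR4 and DMR6 had 1371, 1791, 842, 1348 and 1029 bases in liver. Those of DMR1, DMR11, DMR2, DMR3 and DMR4 had 754, 465, 926, 701 and 812 bases in heart. The difference was 0.79, beside 0.34 over all peaks and 0.71 in the log2 number of peaks, and 0.68 within series. In the naked mole-rat it was 0.53 (1115 ± 203 against 797 ± 289 bases, SD, n = 5 and 3), beside 0.07 over all peaks and 1.17 in the log2 number of peaks, and the heart list of NMR30, with 1115 bases, lay inside the liver range. The guinea pig difference was 0.58 with groups apart (1613 ± 269.5 against 1077 ± 155 bases, SD, n = 3 and 3), but it was 0.43 over all peaks and 0.14 relative to each library's own median. The mouse difference was 0.05, and without the heart pool, whose list held 20521 peaks and had a median of 454 bases, it was −0.22. Exact permutation tests were run on all 12 tissue comparisons of width and distance: 3 of width had an unadjusted p below 0.05, from which nothing is read, and 0 passed after adjustment.

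In liver the guinea pig had the widest peaks at shared enhancers for both marks. Its H3K27ac peaks were 1.45 times as wide as those of the mouse, with groups apart. Relative to the width of all peaks in the same libraries this log2 difference was 0.60. Naked mole-rat liver peaks were 0.577 times as wide as those of the mouse, also with groups apart, but the relative difference was 0.03. The relative difference was 0.00 for the naked against the Damaraland mole-rat and 0.03 for the Damaraland mole-rat against the mouse. Against the guinea pig it was −0.57 for each mole-rat. Peak extents enter the overlap rule, so these widths are descriptions and no p is given for them. Exact permutation tests were run on 36 species comparisons of width and distance. Of these, 8 had an unadjusted p below 0.05, from which nothing is read, and 0 passed after adjustment.

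Although members lack H3K4me3 by the consensus, single lists had H3K4me3 peaks at some of them. In mouse heart 35.6% of shared regions had a peak in at least 1 of the 6 H3K4me3 lists, against 7.11% of heart-only ones. The lists labelled 6837 and the pool held most of these, with peaks at 20.0% and 16.3% of shared regions against 0.211% to 1.32% in the other lists, and without both of them 1.82% of shared and 1.24% of heart-only regions had a peak. At heart-only enhancers 6837 had peaks at 0.0258%, the lowest of the 6 lists. In naked mole-rat liver 17.7% of shared and 13.3% of liver-only regions had a peak in any list, and 6.46% and 4.46% without NMR30. Heart lists of the other species had peaks at 10.9% of shared against 5.05% of heart-only regions in naked mole-rats, 12.1% against 5.69% in Damaraland mole-rats and 4.06% against 1.22% in guinea pigs. Requiring no H3K4me3 peak in any list left 3706 members in mice, 4348 in naked mole-rats, 7103 in Damaraland mole-rats and 5912 in guinea pigs.

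Shared enhancers lay nearer to H3K4me3 regions, which mark promoters, than enhancers of 1 tissue. The median distance to the nearest H3K4me3 consensus region in liver was 16476 bases for shared against 19026 for liver-only enhancers in naked mole-rats, 21080 against 29577 in Damaraland mole-rats, 24354 against 29985 in guinea pigs and 17386 against 19300 in mice. In heart it was 19794 against 29842, 17529 against 24370, 19528 against 28142 and 15858 against 24877. The log2 ratio averaged −0.29 ± 0.15 in liver and −0.56 ± 0.08 in heart (SD, n = 4 species), below 0 in 4 of 4 species for each (two-sided exact sign-flip permutation p = 0.13, the smallest that 4 species allow). The same H3K4me3 regions enter the definition of an active enhancer. Tissue-only regions must also lack every mark region, H3K4me3 included, in the other tissue. How far these definitions set the difference was not tested, so nothing is read from the p. Among regions of 500 to 1500 bases the means were −0.27 and −0.58. With an overlap of 50% of both regions the means were −0.99 and −1.06, and without 6837 and the pool −0.29 and −0.53. Very close to H3K4me3 the order in liver was the reverse in 3 of 4 species: within 1 kb lay 4.39% of shared against 6.39% of liver-only enhancers in naked mole-rats, 2.81% against 3.21% in Damaraland mole-rats, 2.14% against 2.11% in guinea pigs and 2.72% against 3.89% in mice. Within 50 kb lay 81.0% against 74.1%, 75.6% against 63.0%, 72.0% against 63.4% and 80.8% against 73.2%.

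**Figure D4:**
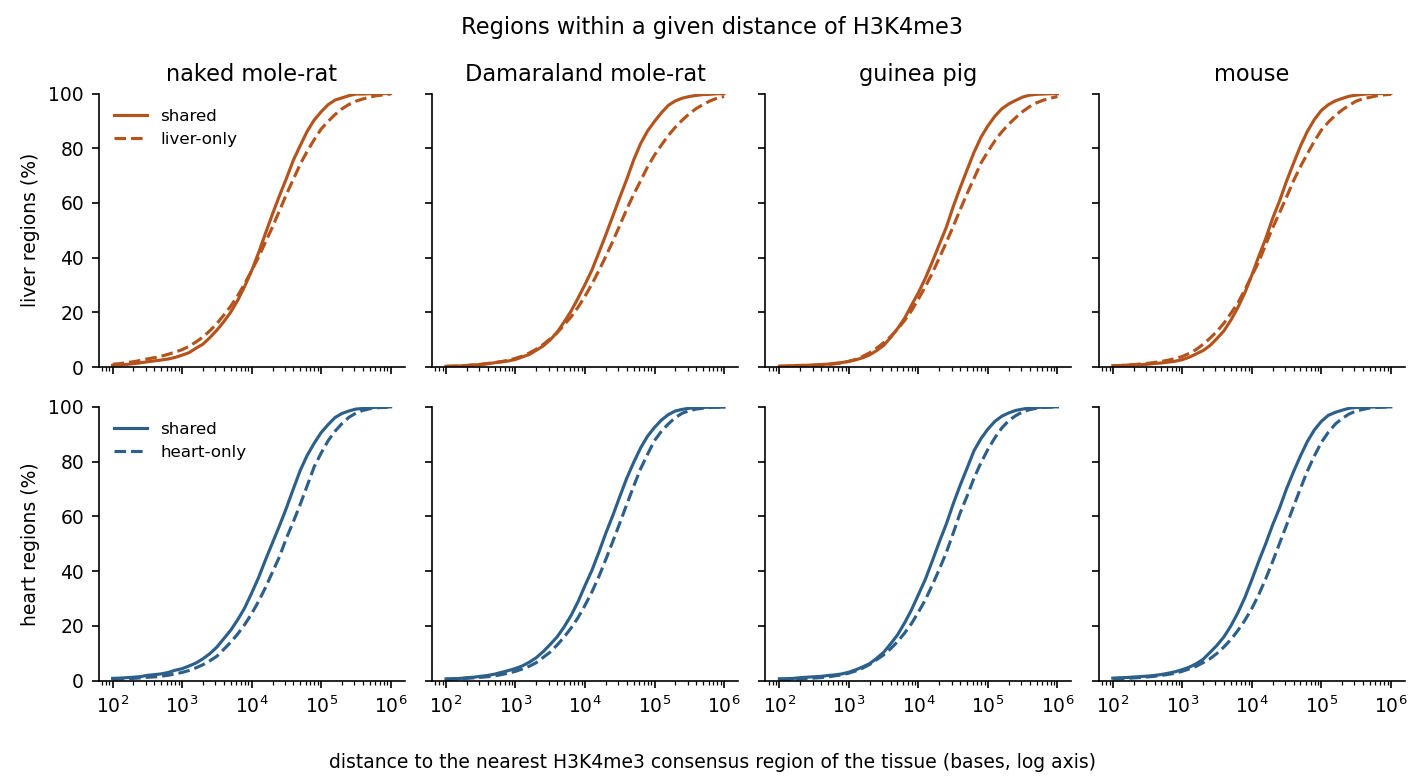
Curves give the percentage of shared (solid) and tissue-only (dashed) active enhancers within a given distance of an H3K4me3 consensus region of the same tissue, on a log distance axis in bases. In heart the shared curve lies left of the heart-only curve in each species, with medians of 15858 to 19794 against 24370 to 29842 bases.

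Distances measured in single H3K4me3 lists overlapped between liver and heart in every species but the guinea pig. Liver lists were measured from the liver regions of the shared enhancers and heart lists from the heart regions. These lists also enter the definition of an active enhancer, so nothing is read from the p values given here. Naked mole-rat liver lists had medians of 2227, 18746, 11960, 16947 and 12786 bases for NMR30, NMR31, NMR32, NMR34 and NMR35, and heart lists 16128, 21097, 13992 and 12688 bases for NMR31, NMR32, NMR34 and NMR35. NMR30, with 253457 peaks, was far below the rest. The difference was −0.63 (exact permutation p = 0.492, adjusted 0.656) and was −0.08 without NMR30. Mouse liver lists had 16884, 17876, 19057 and 17044 bases, and heart lists ran from 5510 to 22803 with a median of 17854. The lowest heart values were 5510 for 6837 and 8667 for the pool. The mouse difference of 0.35 (exact permutation p = 0.476, adjusted 0.656) became 0.10 without 6837 and −0.14 without both. Guinea pig liver lists (22566, 24216 and 25174 bases) were all above the heart lists (19353, 19463 and 17757), a difference of 0.35 (exact permutation p = 0.10, the smallest possible; adjusted 0.200), beside a liver minus heart log2 number of peaks of −0.55. With the same number of peaks of every mark in each list it was −0.01. The Damaraland mole-rat difference was −0.04 (exact permutation p = 1.00), and DMR11 in heart had 26600 bases against 13447 to 16456 in the other heart lists.

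Liver transcription factors bound part of the shared enhancers in the mole-rats. CEBPA directs liver metabolic and acute-phase genes, FOXA1 opens closed chromatin in liver, HNF4A and HNF6 maintain the liver cell state, and RXRA is the partner of many nuclear receptors that sense fats, bile acids and vitamins. All 16 liver factor lists had peaks at a higher share of shared than of heart-only enhancers. Heart-only enhancers by definition have no region of the 3 marks in liver, so nothing is read from this count. RXRA was at 10.6% of naked mole-rat shared enhancers in NMR30 and 20.7% in NMR35, against 6.77% and 12.3% of liver-only ones. It was at 18.2% of Damaraland mole-rat shared enhancers in DMR1 and 38.4% in DMR4, against 15.3% and 33.9% of liver-only ones. RXRA was thus more frequent at shared enhancers in 4 of 4 lists, by 2.93 to 8.35 percentage points, and in 2 of 4 where a 1-base overlap counted as binding.

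CEBPA went the other way. It was at 23.9% of shared against 26.8% of liver-only enhancers in NMR30, 19.7% against 21.4% in NMR35, 13.1% against 16.3% in DMR1 and 30.4% against 37.5% in DMR4. With equal peak numbers CEBPA was higher at shared enhancers in 2 of 4 lists. HNF4A was more frequent at shared enhancers in 3 of 3 lists, at 2.39% against 2.21% in NMR30, 11.1% against 9.0% in NMR35 and 23.9% against 20.1% in DMR4, though the NMR30 list also had peaks at 2.12% of heart-only enhancers, and with a 1-base overlap HNF4A was higher in 0 of 3. FOXA1 was split, higher in NMR30 and DMR4 and lower in NMR35 and DMR1, and HNF6, with 1 list, was at 8.45% of shared and 12.5% of liver-only enhancers. Averaged over the factors of an animal, shared minus liver-only was 0.416 percentage points in NMR30, 1.59 in NMR35, −1.90 in DMR1 and 0.372 in DMR4. DMR1 had HNF6 (−4.05 points) in place of HNF4A, so its average is over a different set of factors. The mean of 0.12 ± 1.46 (SD, n = 4 animals) was within the spread between animals (two-sided exact sign-flip permutation p = 0.75; the smallest possible is 0.13). TBX5, a factor of heart muscle development measured in the heart of DMR6, was at 16.7% of shared, 11.9% of heart-only enhancers and 5.54% of liver-only ones.

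Shared enhancers were wider than liver-only ones, so the comparison was repeated within 1 band of width, without matching widths inside it. The band kept 2855 of 6072 naked mole-rat and 3806 of 8788 Damaraland mole-rat members. Among regions of 500 to 1500 bases, 15 of 16 liver lists had peaks at fewer shared than liver-only enhancers, with a mean difference of −4.58 ± 1.66 percentage points (SD, n = 4 animals, below 0 in 4 of 4; exact sign-flip permutation p = 0.13). RXRA was then higher at shared enhancers in 1 of 4 lists, that of NMR35 with 14.1% against 11.5%, and lower by 0.251 to 4.50 points in the other lists. HNF4A was lower in 3 of 3. CEBPA in DMR4 was at 16.4% of shared and 31.3% of liver-only enhancers of that width. Shared enhancers still exceeded heart-only ones in 15 of 16 lists, the exception being HNF4A in NMR30 (1.16% against 1.56%). The definition of heart-only enhancers bears on this count as well. TBX5 was at 6.93% of shared and 8.12% of heart-only enhancers of that width, and thus changed sides.

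**Figure D5:**
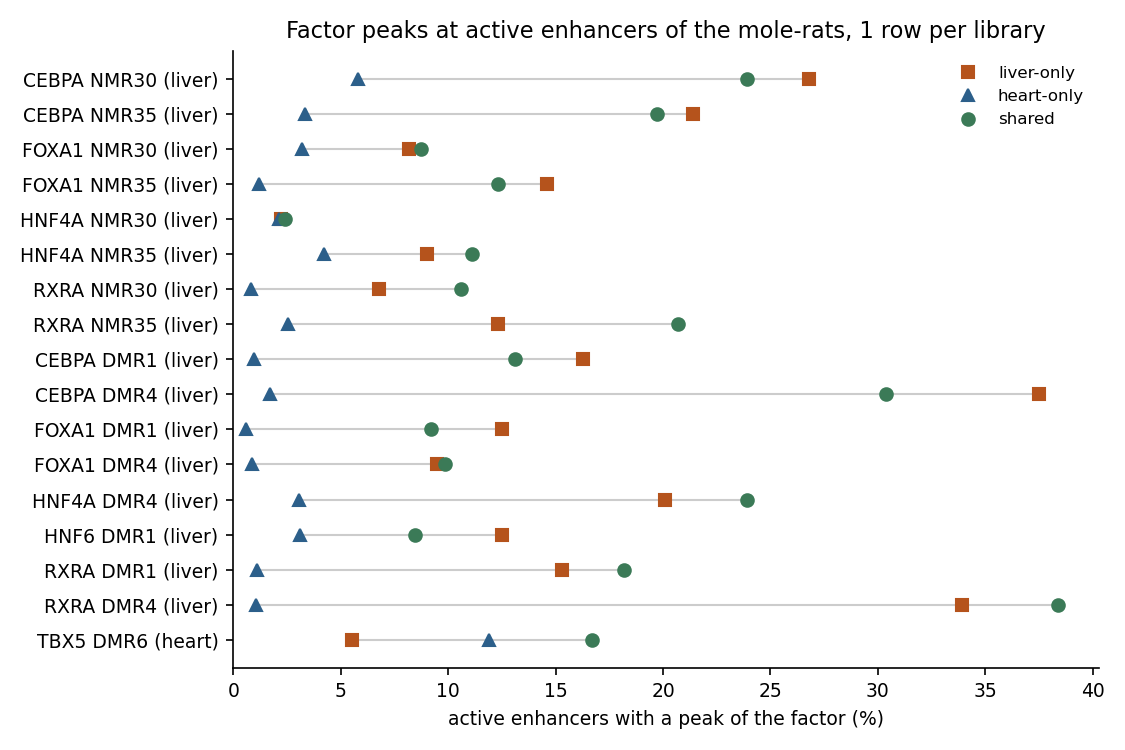
Points give the percentage of shared, liver-only and heart-only active enhancers of all widths that had a peak of each factor, 1 row per library of the naked (NMR) and Damaraland (DMR) mole-rat. Shared enhancers lie above liver-only ones in the RXRA rows and below them in the CEBPA rows. In most liver rows they lie far above heart-only ones, which by definition have no mark region in liver.

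Many shared enhancers, like many liver-only ones, had no peak of any liver factor measured. None of the 8 lists had a peak at 3453 of 6072 naked mole-rat members (56.9%) and at 4168 of 8788 Damaraland mole-rat members (47.4%). By the 4 factors of an animal, 69.0% of shared and 66.5% of liver-only enhancers had no peak in NMR30, and 63.8% and 63.2% in NMR35. The shares were 70.8% and 65.3% in DMR1, and 50.8% and 45.9% in DMR4. Of heart-only enhancers 89.7% to 94.6% had none. Members without a factor peak were narrow, with median widths of 597 and 633 bases against 1430 and 1770 bases for those with 1 or more. Their median H3K27ac fold was 5.68 in liver and 7.78 in heart of the naked mole-rat, and 5.39 and 7.15 in the Damaraland mole-rat. Members with a factor peak had 8.53 and 8.18, and 9.13 and 7.15. Bound and unbound members thus differed in liver fold more than in heart fold. At the 23 naked mole-rat and 78 Damaraland mole-rat members with a peak in all 8 lists, the liver fold was 26.4 and 27.3 and the heart fold 10.3 and 7.69. All 4 factors of an animal met at 5.68% of shared against 3.62% of liver-only enhancers in DMR4, 2.68% against 1.15% in NMR35 and 0.461% against 0.307% in NMR30. In DMR1, with HNF6 in place of HNF4A, it was 1.54% against 1.58%.

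Named regions were picked by a fixed rule: the 3 members with the highest H3K27ac fold in their weaker tissue among those with a peak in every list, the widest stretch active in both tissues, the member farthest from H3K4me3, and in mole-rats the member with a peak in most factor lists. Their folds are thus what chose them. Of the 22 named regions 15 overlapped an H3K4me3 peak in at least 1 list.

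The strongest naked mole-rat member was JH170223.1:208344-219310 (HetGla_1.0), a region of 10967 bases inside a heart region of 11093 bases. Its H3K27ac fold was 26.4, 34.8, 35.3, 26.5 and 46.1 in liver of NMR30, NMR31, NMR32, NMR34 and NMR35, and 38.4, 38.5 and 33.8 in heart of NMR31, NMR32 and NMR35. The tissues overlapped, unlike at the second region, JH167583.1:1443870-1450283, where liver lists (53.1 to 76.4) were all above heart lists (27.5 to 40.3). The third, JH170223.1:195842-199264, lies on the scaffold of the first, and had 30.1 ± 4.38 in liver (SD, n = 5) and 28.7 ± 9.74 in heart (n = 3). All 3 had factor peaks in 6 or 7 of 8 lists. The widest stretch, 17661 bases, lay in JH167500.1:3224174-3250696, with a fold of 57 ± 13.7 in liver and 15.8 ± 3.80 in heart, and it had an H3K4me3 peak in 3 of 5 liver lists. JH168909.1:298822-301316 was 790489 bases from liver and 949714 bases from heart H3K4me3, and still had an H3K27ac peak in 5 of 5 liver and 3 of 3 heart lists, with CEBPA and FOXA1 peaks in both animals. JH168066.1:338484-349718 had a peak in all 8 factor lists, with a liver fold of 61.7 ± 14.7 and a heart fold of 21.3 ± 2.92.

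In the Damaraland mole-rat the strongest member was KN121161.1:6723986-6733028 (DMR_v1.0), with an H3K27ac fold of 48.4 ± 14.7 in liver and 33.6 ± 12.2 in heart (SD, n = 5 and 5). KN122326.1:6671657-6698615 had 52.0 ± 12.1 and 32.1 ± 13.2, and KN122008.1:3938113-3947064 had 50.8 ± 8.10 and 29.7 ± 14.3. In these 3 regions liver and heart lists overlapped. The liver region KN122326.1:6671657-6698615 touches or overlaps a heart H3K4me3 consensus region, which by the rule leaves out heart regions only. Each of the 3 had an H3K4me3 peak in 1 of 2 liver lists, and KN121161.1:6723986-6733028 and KN122008.1:3938113-3947064 also in 1 and 2 of 5 heart lists. The widest stretch was 28844 bases of KN122489.1:1829914-1860092, a region of 30179 bases that had a peak in all 8 liver factor lists and no H3K4me3 peak in any list. Its H3K27ac fold was 31.2, 33.7, 17.1, 23.2 and 31.8 in liver of DMR1, DMR2, DMR3, DMR4 and DMR6, and 4.71, 7.47, 12.9, 16.0 and 7.72 in heart of DMR1, DMR11, DMR2, DMR3 and DMR4. Every liver list exceeded every heart list there. KN122207.1:583757-596753, also with a peak in 8 of 8 factor lists, was more even, with 27 ± 1.97 in liver and 23.2 ± 9.59 in heart. The farthest member, KN123665.1:1673000-1673768, lay 1124941 bases from liver H3K4me3, had no factor peak and had an H3K27ac peak in 4 of 5 liver lists.

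The strongest member of the guinea pig, DS562945.1:3152164-3162064 (Cavpor3.0), had a higher mean fold in its weaker tissue, 52.4, than the strongest member of the other species. Its liver lists had 72.5, 42.8 and 41.9 and its heart lists 44.5, 77.6 and 66.9 for animals 7, 8 and 9, so the tissues overlapped, and no list had an H3K4me3 peak on it. DS562874.1:33665523-33701172, of 35650 bases, had 45.3 ± 15.1 in liver and 43.7 ± 14.4 in heart (SD, n = 3 and 3). DS562861.1:42316164-42323520 faced a heart region of 1582 bases and had 55.2 ± 10.1 and 40.5 ± 7.0. The liver regions of both touch or overlap a heart H3K4me3 consensus region, which by the rule leaves out heart regions only. The widest stretch of any species but the mouse was 37913 bases in DS562856.1:14413839-14457866. The farthest member, DS562972.1:3676662-3677742, lay 1769296 bases from liver H3K4me3 with folds of 4.62 ± 1.11 and 5.00 ± 0.367, and had an H3K4me1 peak in 1 of 3 heart lists.

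In the mouse (GRCm38) the strongest member was 9:48719458-48757618, a region of 38161 bases of which 13548 were active in heart. Its H3K27ac fold was 39.9 to 95.3 in liver with a median of 54.1, and 11.9 to 40.8 in heart with a median of 21.9. This liver region touches or overlaps a heart H3K4me3 consensus region, and the heart lists of 6837 and the pool had H3K4me3 peaks on it. At 2:152783927-152787801 the tissues were closer, with 25.4, 19.3, 31.2 and 17.1 in liver of 85920, 85921, 85923 and 85924 and 13.3 to 48.9 in heart, median 20.5. At 9:122020939-122030911 the fold was 20.1 ± 3.37 in liver (SD, n = 4) and 23.1 ± 8.24 in heart (n = 6). The widest stretch of all, 45556 bases, lay in 15:58973249-59025500, where liver lists had 50.9 ± 9.13 and heart lists 9.51 ± 2.66. The farthest member, 14:22807762-22808443, lay 786959 bases from liver H3K4me3, and was weaker in liver (5.00 ± 0.924) than in heart (8.22 ± 1.03), with no overlap of the lists. Each of the 5 had an H3K4me3 peak in the heart list of 6837, of the pool, or of both, and in no other list.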

How the data were processed

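Peak lists of liver and heart were used as the authors deposited them, 1 per library. MACS2 is named in the submitters' processing notes without a version, and the aligner is not given in the sources used here. Per the file names, lists were called on GRCm38, HetGla_1.0, DMR_v1.0 and Cavpor3.0. The deposited fold is a linear ratio, the deposited significance of each peak is a −log10 of p and a −log10 of q (lowest 1.30), and the deposited score is 10 times the −log10 q as a whole number. The members, lists and tests were chosen with earlier results of these data known. Overlapping peaks of a list were merged. Computation used SciPy 1.17.1, pandas 2.3.3 and NumPy 2.4.6 under Python 3.11.15, and Matplotlib 3.10.9 drew the plots. Per library, width and fold were the widest and strongest merged peak at a member, and the library value was the median over members with a peak; distance was in log2 bases plus 1, and regions on scaffolds without H3K4me3 have none. Libraries without a peak at a member add no value for it. Tests were two-sided exact permutation tests over libraries, or exact sign-flip tests over animals or species, adjusted by the Benjamini-Hochberg method over 12 tissue, 36 species and 18 between-species comparisons at 0.05, and checked on simulated data. Tests of width between tissues or species are given as counts only, since peak extents enter the overlap rule. Replicates are animals. The same animals gave liver and heart lists in the mole-rats and guinea pig (2 to 4 per mark), which pairs them by label, while no mouse gave both. Members were redefined with other overlaps, thresholds, peak numbers and consensus sizes, and with each library left out. The named-region rule is given with the regions; mouse chromosome 18 was passed over. Positions count from 1. Of 160 samples, 116 had a list; 1 sample with labels of different species was not used. The planned gene lists were not analysed here.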

Additional observations from a re-analysis of the deposited data

Results flagged for a closer look

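Among 40 sets of libraries and measures at shared enhancers, each with 4 to 6 libraries, 5 had 1 library far from the others by Dixon's criterion, which chance meets in about 1 set in 20. The naked mole-rat liver H3K4me1 list of NMR31 had a median fold of 7.18 at members, against 8.01 to 8.11 in the other lists. The liver H3K4me3 list of NMR30 had a peak at 12.6% of naked mole-rat members, against 0.478% to 3.38%. The Damaraland mole-rat liver H3K27ac list of DMR2 had a median width of 836 bases, against 558 to 608 bases. The heart H3K4me3 list of DMR11, the shortest of its group with 20803 peaks, was a median 26600 bases from members, against 13447 to 16456 bases. The mouse liver H3K4me1 list of 85924 had a median fold of 10.6, against 6.33 to 6.65, and at liver-only enhancers it also had the highest fold, 9.76.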

How the results depend on the processing

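Of 793 values under other settings, 24 changed sign and 34 moved. The other 735 kept their direction and their side of the threshold, or stayed near the reported value. No setting changed a call of the tissue or species comparisons, which stood at 0 of 12 and 0 of 36. Nothing is read from the unchanged calls, since the peaks and lists tested also define the members. In the guinea pig the smallest possible exact permutation p between the tissues was 0.10, so no call could be made. The number of members depended on the definition. An overlap of 50% of both regions gave 316, 1050, 763 and 985 in naked and Damaraland mole-rats, guinea pigs and mice, and a consensus of 3 animals 2757, 5294, 3304 and 3825. Equal peak numbers gave 3230, 2530 and 1800 in the naked mole-rat, Damaraland mole-rat and mouse, a −log10 q of at least 4 gave 3346 in the naked mole-rat, and no H3K4me3 peak in any list 3706 in the mouse. Leaving out 1 library gave 3628 to 6275 in the naked mole-rat. Differences near 0 changed sign. The mouse liver minus heart H3K27ac width was −0.05 with a −log10 q of at least 4, −0.27 relative to all peaks and −0.04 to 0.16 with 1 library left out. The mouse H3K4me1 width was −0.01 in the first of these, −0.01 in the second and −0.22 to 0.21 in the third. For distance, the guinea pig was at −0.01 with equal peak numbers. The mouse was at −0.09 with equal peak numbers of every mark, −0.10 with equal H3K4me3 peak numbers only and −0.14 without 6837 and the pool. The Damaraland mole-rat was at 0.03 with a consensus of 3 animals, 0.21 within library series and −0.11 to 0.13 with 1 library left out. In tests chosen after the data were seen, the number of 18 tissue differences that differed between species after adjustment was 0 with the members as reported, 3 with a −log10 q of at least 4, 2 with a consensus of 3 animals, 3 with no H3K4me3 peak in any list, 3 on scaffolds reaching 1 Mb, and 0 to 4 with 1 library left out. Widths enter the overlap rule, so nothing is read from these counts. Shared minus liver-only factor binding was −5.89 points with members defined by 1 base, −0.597 with 50% of both regions, −0.00913 with a consensus of 3 animals, −0.623 with no H3K4me3 peak in any list, −5.54 with factor peaks overlapping by 1 base, −0.0391 with factor peaks of a −log10 q of at least 4, −4.58 at 500 to 1500 bases, and −0.371 to 0.793 with 1 animal left out. Among these the cause of each change was not tested.

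With the animal as a replicate block, the paired liver minus heart difference was −0.85, −0.34 and 0.46 for H3K27ac width in the naked mole-rat, Damaraland mole-rat and guinea pig, 0.53, 0.70 and 0.58 for H3K4me1 width, and −0.08, 0.20 and 0.35 for distance. The pairing changed no call, and 2 to 4 pairs cannot reach the threshold. Of the named regions, an overlap of 50% of both regions kept 0, 2, 1 and 0 as members in the 4 species. The gene lists were not run.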

Other observations

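The percentage of mouse liver active enhancers that were shared varied between autosomes and was lowest on the X chromosome. On the autosomes it ran from 19.0% on chromosome 13 (Wilson 95% interval 16.8 to 21.4) to 27.8% on chromosome 12 (25.2 to 30.6). On X it was 16 of 185, or 8.65% (Wilson 95% interval 5.39 to 13.6, counting error only). The share was lower on X than on the other chromosomes together under all 7 other member definitions, at 0.971% to 11%. With a −log10 q of at least 4 the X share was 8.61%, and with no H3K4me3 peak in any list it was 5.14%, against 21.3% and 15.8% elsewhere.

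Members lay close to each other on the scaffolds. The median gap from a shared liver region to the next shared one was 1112 bases in naked mole-rats, 2680 in Damaraland mole-rats, 9607 in guinea pigs and 7038 in mice. Another member lay within 10 kb of 68.8%, 63.9%, 50.8% and 54.8% of members. Liver-only enhancers, which are more numerous, had smaller gaps of 591, 1101, 3454 and 3858 bases. In the naked mole-rat 1057 of 4845 shared heart regions overlapped 2 or more liver regions, against 358 of 6792 in guinea pigs.

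Seen from the same members, H3K4me3 of heart was nearer than that of liver at 64.0% of members in Damaraland mole-rats, 76.3% in guinea pigs, 73.2% in mice and 43.5% in naked mole-rats. H3K4me3 consensus regions numbered 20816 in liver and 27698 in heart of the Damaraland mole-rat, 14454 and 20031 in guinea pigs, 16840 and 18557 in mice, and 27864 and 23023 in naked mole-rats, so in each species the tissue with more regions was the nearer.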
